A study of Mus musculus with 5 samples.

Results

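The Bcl2 family genes studied here were 10 genes of the intrinsic cell death pathway, taken by name from a fixed list: Bcl2, Bcl2l1, Mcl1, Bax, Bak1, Bcl2l11, Bbc3, Pmaip1, Bmf and Bid. They were 10 of 21887 protein-coding genes on the assembled mouse chromosomes, and 91 of the 22948 deposited H3K27ac peaks lay at them, inside them or within 100 kb. H3K27ac is the acetylation of lysine 27 of histone H3, a mark of active promoters and enhancers. It was mapped by ChIPmentation, chromatin immunoprecipitation in which the Tn5 transposase inserts the sequencing adapters, in CD45.2+ Lineage- Sca1+ Kit+ bone marrow cells with Mll3 and Mll4 deleted, labelled HSC/MPP, that is, blood-forming stem cells and their multipotent progeny. The peak list sums up 4 H3K27ac libraries against 1 input library. All 5 libraries carry the deletion, so no value here compares genotypes. The age of the mice, the Cre line or promoter behind the deletion and the number of animals per library are not given in the sources used here. The list has no value of a single library, so no replicate error could be given and no test between samples was possible.

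Proteins of this family decide whether the outer mitochondrial membrane stays sealed. The pro-survival proteins Bcl2, Bcl-xL (encoded by Bcl2l1) and Mcl1 hold the effectors Bax and Bak1 in check. The BH3-only proteins Bim (Bcl2l11), Puma (Bbc3), Noxa (Pmaip1), Bmf and Bid report stress by occupying the groove of the pro-survival proteins, and some also engage the effectors directly. Once active, Bax and Bak1 open the membrane, cytochrome c leaves and caspases are switched on. Haematopoietic stem cells are known to need Mcl1, lymphoid cells lean on Bcl2, and erythroid cells on Bcl-xL.

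The promoters on which the results turn are shown first. Each is the stretch of 250 bases before a transcript start listed by RefSeq (GRCm38.p6), read 5′ to 3′ on the strand of the gene. Bcl2 (chr1:106714291-106714540, minus strand) and the middle of the listed starts of Bbc3 (chr7:16310011-16310260, plus strand) are shown because each start lay in a gap between neighbouring peaks, and capitals mark the bases under a peak.
Bcl2: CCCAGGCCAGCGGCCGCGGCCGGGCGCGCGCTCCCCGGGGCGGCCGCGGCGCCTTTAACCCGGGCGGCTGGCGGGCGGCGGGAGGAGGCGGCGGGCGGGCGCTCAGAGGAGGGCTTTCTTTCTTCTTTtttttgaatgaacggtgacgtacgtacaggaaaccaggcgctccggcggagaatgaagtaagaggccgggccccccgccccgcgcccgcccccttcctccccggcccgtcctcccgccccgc
Bbc3: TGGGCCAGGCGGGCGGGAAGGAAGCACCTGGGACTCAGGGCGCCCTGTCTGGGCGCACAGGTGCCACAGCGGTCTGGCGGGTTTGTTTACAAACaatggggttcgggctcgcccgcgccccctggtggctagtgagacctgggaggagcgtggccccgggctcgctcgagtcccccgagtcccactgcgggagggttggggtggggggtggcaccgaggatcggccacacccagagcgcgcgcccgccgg
Mcl1 (chr3:95658471-95658720, plus strand) is shown because it lay whole under the strongest peak at an end of any member. Bcl2l11 (chr2:128125788-128126037, plus strand) is shown because it holds several of the motifs described further on. In both, capitals mark motif matches.
Mcl1: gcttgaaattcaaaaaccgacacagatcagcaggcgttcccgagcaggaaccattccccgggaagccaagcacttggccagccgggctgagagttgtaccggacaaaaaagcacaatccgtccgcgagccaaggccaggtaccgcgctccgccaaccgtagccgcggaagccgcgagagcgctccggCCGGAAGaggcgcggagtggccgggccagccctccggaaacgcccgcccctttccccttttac
Bcl2l11: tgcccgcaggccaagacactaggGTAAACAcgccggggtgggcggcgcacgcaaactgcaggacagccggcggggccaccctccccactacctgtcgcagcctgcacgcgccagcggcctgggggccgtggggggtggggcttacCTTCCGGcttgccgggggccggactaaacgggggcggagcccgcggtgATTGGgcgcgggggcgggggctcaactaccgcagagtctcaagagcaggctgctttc
Bcl2l1 (chr2:152828490-152828739, minus strand) is shown as the contrast in CG pairs. It lay under no peak, and it holds 0 CG pairs, which capitals would mark, against 36 in the Bcl2 stretch and 26 in that of Mcl1. The stretches of the other 2 Bcl2l1 starts also lay under no peak and hold 11 and 12 CG pairs. Lying under no peak was not particular to Bcl2l1. The Bcl2l11 stretch above, with 24 CG pairs, and those of Bax (14) and Bak1 (8) lay under none either.
Bcl2l1: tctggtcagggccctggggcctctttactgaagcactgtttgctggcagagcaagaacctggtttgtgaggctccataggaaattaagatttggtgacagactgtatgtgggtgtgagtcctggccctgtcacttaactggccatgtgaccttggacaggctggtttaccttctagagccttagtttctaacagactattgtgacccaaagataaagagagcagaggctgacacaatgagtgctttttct

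At 9 of the 10 genes a peak reached into a window of 1 kb to each side of an end of the gene record, as at 36.2% of all protein-coding genes. All 7 pro-death genes had such a peak, and so did 2 of the 3 pro-survival genes, Bcl2l1 being the exception. A peak inside the gene and away from its ends was found at 5 of the 10, against 16.6% of all genes. With only peaks of −log10 q of at least 5 it was found at 3, against 7.34%, and with only signals of 4 or more at 3, against 6.85%. All 10 had a peak outside the gene within 100 kb, against 72.2% of all genes. Counting only peaks whose nearest gene end was that of the gene itself, 5 of the 10 had one, against 11.0%. The 91 peaks divided into 12 at ends, 25 inside genes and 54 outside. Among those outside, 25 had a summit less than 1 kb from another protein-coding gene's end. The other 29 were distal, with no gene end within 1 kb of the summit. Acetylation in a few cells and weak acetylation in all cells cannot be told apart in a list from bulk cells.

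**Figure D1:**
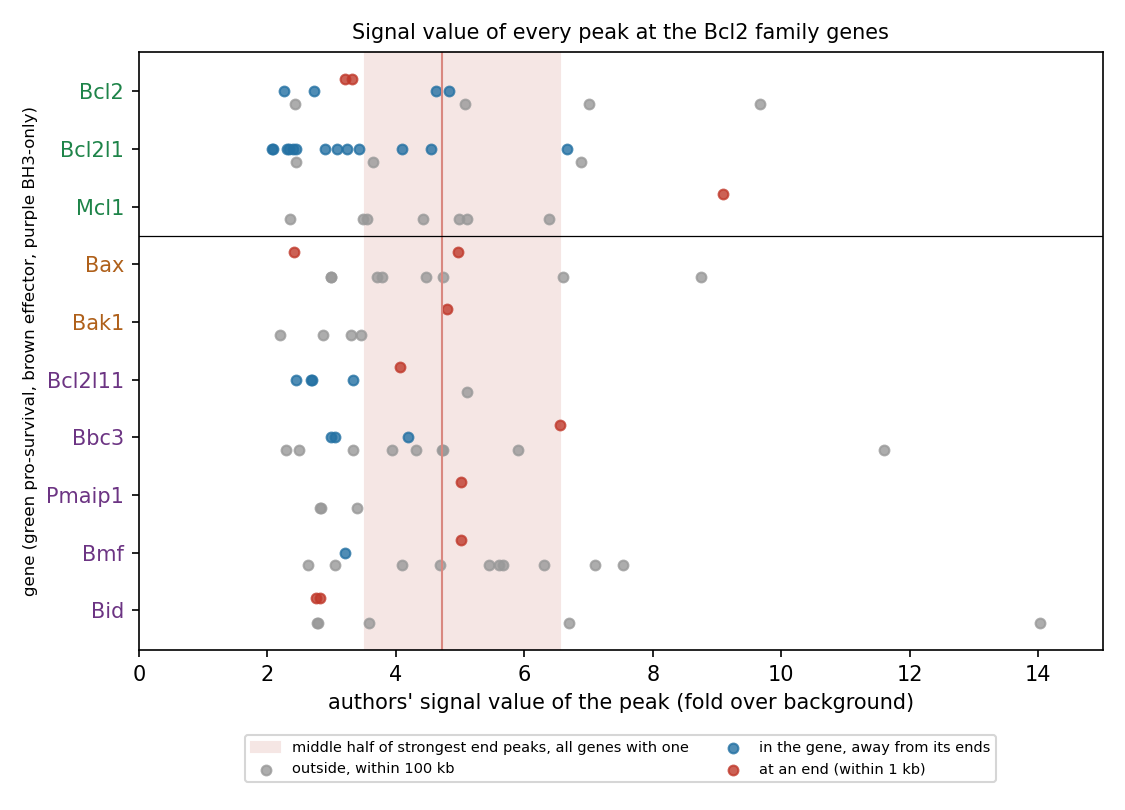
Signal value of each of the 91 peaks (x axis, the authors' fold over background) by gene, split into peaks at an end, inside the gene and outside within 100 kb. The shaded band is the interquartile range of the strongest end peak over the 7929 genes that had one (3.52 to 6.55), with its median of 4.71 as a line. Mcl1 lies above the band and Bcl2 and Bid lie below it.

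The strength of a peak is given by the authors' signal value, read as the fold of the H3K27ac pileup over the background and called the signal here, and by the −log10 of its q-value. The median signal of all 22948 peaks was 3.27 (interquartile range 2.69 to 4.62). Over the 7929 genes with a peak at an end, the strongest such peak had a median of 4.71 (3.52 to 6.55). The medians over the family were 6.21 for the 2 pro-survival genes with an end peak and 4.97 for the 7 pro-death genes. The pro-survival median averages a high and a low gene, so the sides overlapped: Mcl1 was the highest of all members, at 9.09, and Bcl2 the lowest but one, at 3.32.

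Among the pro-survival genes, Mcl1 had the strongest acetylation at its start. Mcl1 is a short-lived protein that must be made continually. Its peak on chromosome 3 (95657757 to 95661044) was 3288 bp wide, with a signal of 9.09 (−log10 q 29.3). It ranked 813th of all peaks by signal value, and 90.6% of genes with an end peak had a weaker one as their strongest. It covered 52.7% of the 6.24 kb gene, the largest share in the family. The outer end of the gene record lay upstream of the listed start, so the window caught only 188 bp of the peak, while the summit was 456 bp from the listed start.

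Mcl1 also had 7 peaks outside the gene. The nearest, from 95666339 to 95669986, began 3.16 kb past the end of the gene, was 3648 bp wide and had a signal of 4.99. The next, from 95672392 to 95674236, had a signal of 4.42 and lay nearer to an end of Adamtsl4. The strongest of the 7, at 6.38, had its summit 362 bp from an end of Ensa, and another, at 3.49, lay at Golph3l. Both sides of Mcl1 therefore carried peaks, but upstream of it they stood only at ends of other genes.

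Bcl2 was acetylated on both sides of its start, weakly. Bcl2 is the founding member and a survival factor of lymphoid cells. The peak upstream of the start, on chromosome 1 (106714413 to 106715218), had a signal of 3.32 (−log10 q 4.38). The peak downstream, from 106713728 to 106714202, had a signal of 3.21. A gap of 210 bp separated them and held the listed start, 123 bp from the upstream peak and 88 bp from the downstream one. Of genes with an end peak, 20.8% had a weaker strongest peak than Bcl2.

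Inside its 176 kb Bcl2 had 4 peaks, of which 2 were stronger than those at its start. The strongest (106547997 to 106551007, 3011 bp wide) had a signal of 4.83 and its summit was 11.3 kb from the far end of the gene. The next (106687451 to 106689310) had a signal of 4.62 and lay 26.3 kb past the start. The remaining 2, between them, had signal values of 2.26 and 2.72. Among the 4945 genes of 50 kb or more, 12.7% had at least 4 peaks inside. The highest signal value within 100 kb of Bcl2, 9.67, was at an end of the neighbour Vps4b, and those of 7.01 and 5.08 were at Kdsr.

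Bcl2l1 differed from both in its arrangement, with 13 peaks inside the gene and none at its ends. Bcl-xL, its product, protects erythroid cells and platelets among others. The 13 peaks spread over 42.5 kb (152787609 to 152830082 on chromosome 2) and, with no end peak to add, covered 27.7% of the gene. Their signal values ran from 2.08 to 6.67 with a median of 2.90. Among the 4945 genes of 50 kb or more, 112 (2.26%) had 13 or more peaks inside. With peaks within 1 kb merged, Bcl2l1 had 6 inside peaks.

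The strongest of the 13 (152792731 to 152797055, 4325 bp wide, signal value 6.67, −log10 q 17.1) had its summit 34.3 kb from the nearest listed start. Those from 152787609 to 152791014 (signal value 4.54) and from 152815162 to 152819634 (4.10) were the only others with a −log10 q of 5 or more. A q-value above 0.05 was attached to 6 of the 13. The 3 peaks nearest to the listed starts were among these 6, with signal values of 2.08, 2.35 and 2.10. None of the 3 listed starts lay in a peak. The nearest peak was 280 bp, 635 bp and 1646 bp away from them. The strongest 2 of the 13, and a weaker one between them (2.31), had a summit nearer to an end of the neighbour Cox4i2 than to an end of Bcl2l1. That end of Cox4i2 lies inside the Bcl2l1 record, so the records of these neighbours overlap. Without these 3 peaks the strongest of the remaining 10 inside peaks had a signal of 4.10.

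**Figure D2:**
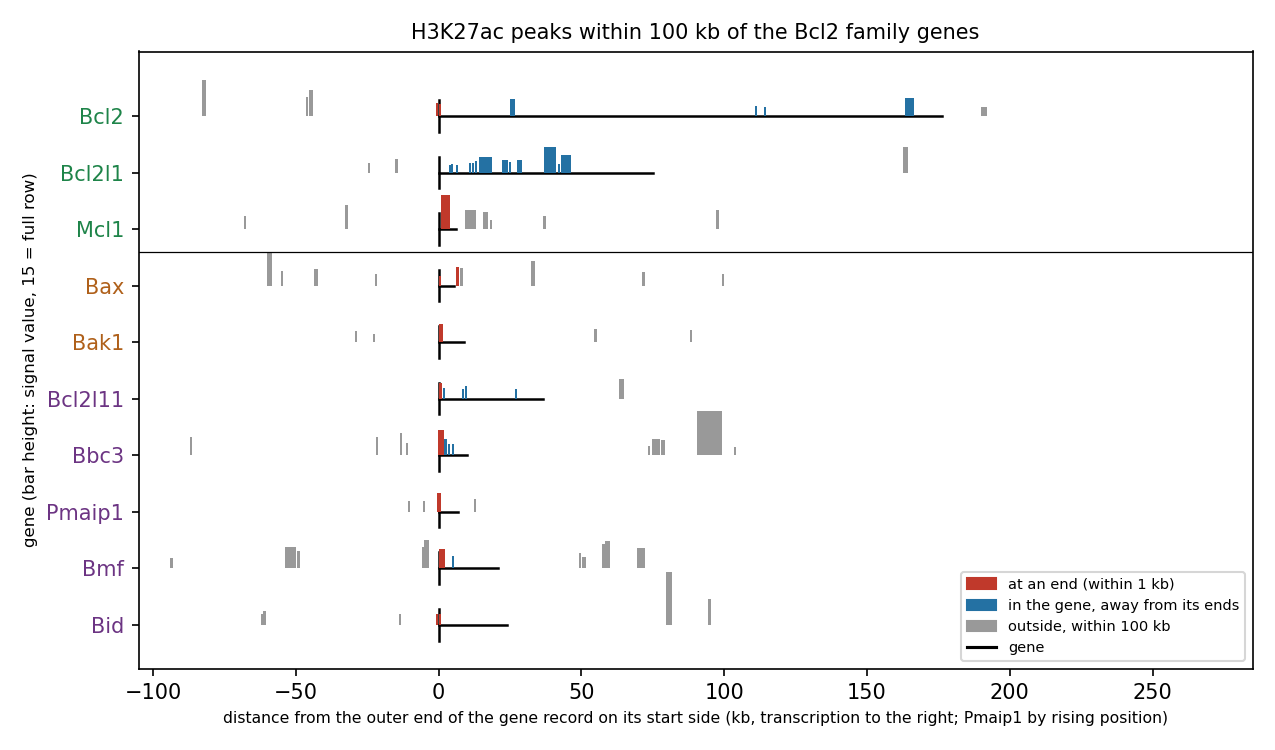
Peaks within 100 kb of each gene (x axis, distance in kb from the outer end of the gene record on its start side; bar height, signal value). Bcl2l1 carries a run of 13 peaks inside the gene, Mcl1 a single strong peak over its start, and Bcl2 weak peaks at the start with 4 inside.

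The effectors had peaks at their starts and none inside the gene away from its ends, where 16.6% of all protein-coding genes had one. Both effector genes are under 20 kb, and genes of that length had a median of 0 such peaks. Bak1 sits in the outer mitochondrial membrane before activation. Its peak on chromosome 17 (27027183 to 27028536) had a signal of 4.80 (−log10 q 8.34), and began 91 bp downstream of the listed start. None of the 4 peaks outside Bak1 was stronger than 3.46, and 3 of them lay at ends of Cuta, Zbtb9 and Itpr3. A further start of the neighbour Ggnbp1 is listed close by, and Ggnbp1 overlaps Bak1.

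Bax, which moves from the cytosol to mitochondria on activation, had a weak peak at its own start. That peak (chromosome 7, 45466159 to 45466560) had a signal of 2.42 (−log10 q 1.58), and began 338 bp downstream of the listed start. The stronger end peak counted for Bax, 45459788 to 45460788 with a signal value of 4.97, reached only 94 bp into the window at the far end of the gene. Its summit was 289 bp from an end of Ftl1, the ferritin light chain gene. Bax has 15 other protein-coding genes within 100 kb, the most in the family, and 7 of its 8 outside peaks lay at ends of other genes. The highest of these, 8.75, was at Ppp1r15a.

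All 5 BH3-only genes had a peak at an end, beside 36.2% of all protein-coding genes, and the strongest at each had a signal value from 2.81 to 6.55. Bbc3, the gene of Puma and a known target of p53 and of FoxO factors, was the highest. Its peak on chromosome 7 (16308227 to 16310104) had a signal of 6.55 (−log10 q 16.2). It was followed by 3 peaks inside the gene with signal values of 4.19, 3.06 and 2.99. Together they covered 33.0% of the 9.94 kb gene. Of the 11848 genes under 20 kb, 23 (0.194%) had 3 or more peaks inside and away from the ends. The count at Bbc3 rests on how neighbouring peaks were split, since it was 1 with peaks within 1 kb merged and 2 with an end window of 2.5 kb.

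Outside Bbc3, a pair of upstream peaks had signal values of 5.91 (16294971 to 16295677) and 3.33 (16297113 to 16297587). Their nearest gene end was that of Ccdc9. The strongest peak within 100 kb, 16398761 to 16407492, had a signal of 11.6 and was 8732 bp wide. It lay 80.4 kb past Bbc3, with its summit 1122 bp from an end of Zc3h4 that the peak itself covered. By nearest gene end, 4 of the 13 peaks counted for Bbc3 remained with it, all of them at or in the gene.

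Bcl2l11 encodes Bim, which limits the life of blood cells when growth factors are withdrawn. Its end peak on chromosome 2 (128126252 to 128127240) had a signal of 4.07 (−log10 q 5.62). A further peak inside the gene, 128127734 to 128128407, had a signal of 2.69. These 2 peaks were 493 bp apart and the second listed start lay between them. The remaining 3 peaks inside had signal values of 2.68, 3.33 and 2.44, so no peak inside reached that at the end. Of the 5094 genes of 20 to 50 kb, 76 (1.49%) had 4 or more peaks inside. With peaks within 1 kb merged, Bcl2l11 had 2. The single peak outside (128189121 to 128190831, signal value 5.11, −log10 q 9.80) was the strongest of the locus. It began 26.6 kb past the far end of Bcl2l11, and no other gene had an end nearer to its summit. The record of Acoxl, which is read towards Bcl2l11, ends inside Bcl2l11, 729 bp from the summit of the end peak. That end was the nearest gene end to the summit of the end peak and of 3 of the 4 peaks inside.

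Bmf, whose product is held at the cytoskeleton in healthy cells, had more peaks outside than any other member. Its end peak (chromosome 2, 118547596 to 118549549) had a signal of 5.02 (−log10 q 9.80). A pair of peaks upstream of the start were stronger, 118553134 to 118554826 with a signal value of 7.53 and 118555131 to 118555432 with 5.66. They began 3.45 kb and 5.45 kb from the gene, and Bmf had the gene end nearest to both. On the other side, 28.1 to 37.5 kb past the gene, lay 4 peaks with signal values of 7.10, 6.30, 3.06 and 4.10, whose nearest gene end was that of Srp14. Further peaks stood at an end of Srp14 (5.45) and at an end of Bub1b (4.68), and another (5.60) was also nearest to Bub1b. Of the 12 peaks counted for Bmf, 9 had a −log10 q of 5 or more, the most in the family. These 9 include peaks nearer to Srp14 or Bub1b. By nearest gene end, 4 of the 12 remained with Bmf.

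Pmaip1 encodes Noxa, which binds Mcl1. It was the only member with no other protein-coding gene within 100 kb. Its peak on chromosome 18 (66458063 to 66459269) had a signal of 5.02 (−log10 q 9.80). The other 3 peaks were weak, with signal values of 2.84, 2.81 and 3.39, at 10.3, 4.63 and 5.27 kb from the gene. The end peak was therefore the strongest at this locus, as it was at Mcl1 and Bak1.

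Bid, which caspase-8 cleaves to link death receptors to mitochondria, had the lowest signal among the 9 genes with an end peak when the strongest such peak of each was compared. They lay on chromosome 6, from 120916181 to 120916996 (signal value 2.81) and from 120917507 to 120917742 (2.75), both with −log10 q of 1.67. Of genes with an end peak, 8.99% had a strongest end peak weaker than that of Bid. No peak lay inside Bid away from its ends. The strongest peak within 100 kb of any member was 55.7 kb past Bid. It ran from 120835174 to 120837411, had a signal of 14.0, ranked 73rd in the list and had its summit 226 bp from an end of Bcl2l13, a more distant Bcl2 family gene linked to mitophagy.

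A distal peak within 100 kb was stronger than the strongest end peak at 5 of the 9 genes with an end peak. They were Bcl2, Bcl2l11, Bbc3, Bmf and Bid, against 34.8% of all genes with an end peak. At Bcl2 the distal peak was inside the gene (4.83 against 3.32), at Bmf upstream (7.53 against 5.02) and at Bcl2l11 past its end (5.11 against 4.07). At Bbc3 (11.6 against 6.55) and Bid (3.58 against 2.81) another gene end was nearer to the distal peak. The peak of 11.6 covered an end of Zc3h4 and was distal only by its summit, 1122 bp from that end. The next strongest distal peak at Bbc3, at 5.91, was weaker than its end peak. These 5 were 4 of the 7 pro-death genes and 1 of the 2 pro-survival genes with an end peak. Bax was left out of the 5 by its end peak of 4.97 near Ftl1. Its distal peak of 3.79 was stronger than the 2.42 at its own start. That distal peak lay 54.5 kb upstream of Bax, with its summit 1053 bp from an end of Ppp1r15a.

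The pro-survival and pro-death genes were set side by side without a test, since there was 1 pooled peak list, and their gene lengths were unequal. The 3 pro-survival genes had 3 end, 17 inside and 14 outside peaks, and the 7 pro-death genes had 9, 8 and 40. The median gene length was 75.1 kb for the pro-survival and 9.94 kb for the pro-death genes. Peaks inside the gene were found at Bcl2 and Bcl2l1 on one side and at Bcl2l11, Bbc3 and Bmf on the other. The share of the gene under peaks ran from 3.56% (Bcl2) over 27.7% (Bcl2l1) to 52.7% (Mcl1), and from 3.41% (Bid) to 33.0% (Bbc3) among the pro-death genes, so the ranges overlapped. Per 10 kb of gene, the peaks inside numbered 0.227 at Bcl2, 1.73 at Bcl2l1, 1.10 at Bcl2l11, 3.02 at Bbc3 and 0.478 at Bmf. With genes as few as these, the counts describe this list.

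**Figure D3:**
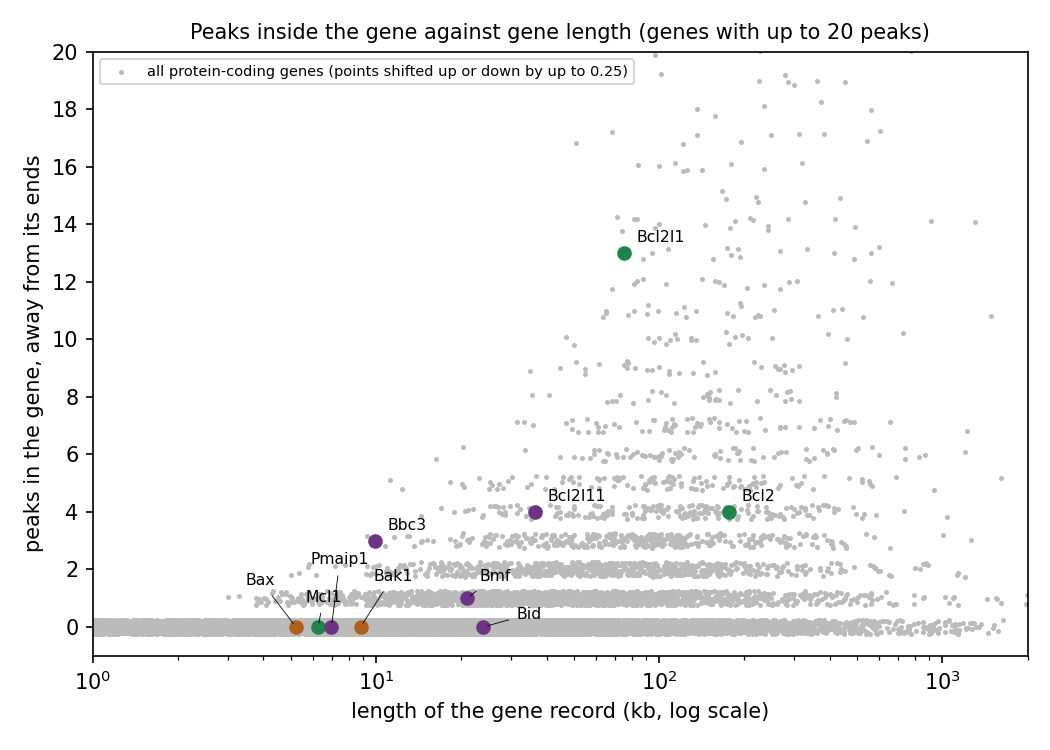
Peaks inside the gene and away from its ends (y axis) against the length of the gene record (x axis, kb, log scale) for protein-coding genes with up to 20 such peaks, in grey, and the 10 members (green pro-survival, brown effector, purple BH3-only). Bcl2l1 (13 peaks), Bcl2l11 (4) and Bbc3 (3) lie above most genes of their length, and 5 members have 0.

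Transcript starts were listed for 9 of the 10 genes, not Pmaip1, with 16 starts in all. Of these, 15 had a peak within 1 kb, where 37.4% of the 21263 listed starts of protein-coding genes did. The exception was the outermost start of Bcl2l1. A peak covered 5 of the 16, at Mcl1, Bid, Bmf and, for 2 starts, Bbc3, against 19.0% of all starts. Another 3 lay in a gap with a peak within 500 bp on both sides, against 4.54% of all starts. These were the start of Bcl2 (gap of 210 bp), the second start of Bcl2l11 (493 bp) and the middle start of Bbc3 (307 bp). Starts of 1 gene share their peaks and are not independent.

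Among the listed protein-coding starts, those rich in CpG more often had a peak within 1 kb. The ratio of observed to expected CG pairs in the 300 bases around a start (250 before and 50 after) had a median of 0.748 over the 16 starts and of 0.567 over all listed starts. It was at least 0.6 at 11 of the 16 and at 47.7% of all. Among all starts with a ratio of at least 0.6, 61.7% had a peak within 1 kb, against 15.3% of those below it. The ratio was 1.02 at both Mcl1 and Bcl2, whose end peaks were the strongest and among the weakest. It was 0.435 at Bak1, and 0.319, 0.287 and 0.567 at the starts of Bmf, which had a peak all the same. At Bcl2l1 it was 0.0558, 0.612 and 1.07. The part of CpG content in the number of members with a peak was not tested.

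**Figure D4:**
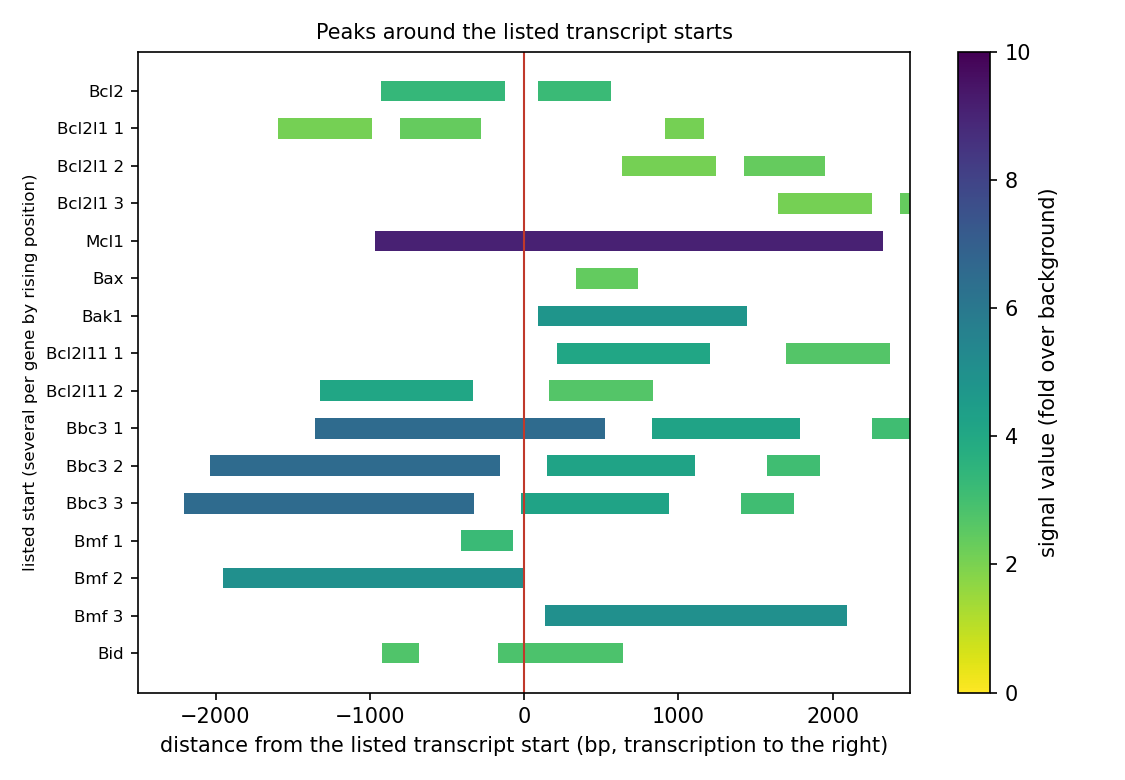
Peaks (bars, coloured by signal value) around each of the 16 listed transcript starts, placed by distance from the start in bp with transcription to the right. Starts of Bcl2, Bcl2l11 and Bbc3 fall into gaps of 210, 493 and 307 bp between peaks, the Mcl1 start lies inside its peak, and the starts of Bcl2l1 have only pale bars beside them.

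The 16 promoters were searched on both strands for 8 short motifs. The FoxO motif TGTTTAC occurred at 2, in 3.01% of all listed promoters. The matches were at the outer start of Bcl2l11, 227 bases before it, and at the middle start of Bbc3, 167 bases before it. The match at Bbc3 is at the inner edge of the capitals in the sequence shown, under the peak of signal value 6.55, and the one at Bcl2l11 lay outside any peak. Both genes are known FoxO3 targets. The ETS motif CCGGAAG occurred at 3 of the 16 (Mcl1, Bcl2l1 and Bcl2l11), against 11.6% of all and 19.7% of those with a CpG ratio of at least 0.6, to which 11 of the 16 belong. The match at Mcl1 was 63 bases before the start.

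Other motifs were common or not found. CCAAT, the NF-Y motif, occurred at 5 promoters of Bcl2l11, Bbc3 and Bmf, against 38.2% of all promoters, with 3 matches at the outer start of Bmf. The E-box CACGTG occurred at Bax, 9 bases before its start and again 35 bases after it, and at the inner start of Bbc3, against 7.84% of all. No match was found to the STAT motif TTCNNNGAA (7.69% of all promoters), the CREB motif TGACGTCA (2.23%), the AP-1 motif TGANTCA (6.99%) or the EBF motif (0.959%), a palindrome with an open centre. These letters describe windows of 300 bases and not binding. None of the motifs contains another.

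Of 38 other genes of the pathway, 25 had a peak at an end, beside 36.2% of all protein-coding genes. Of the other pro-survival Bcl2 family genes, Bcl2l2 had a peak (signal value 5.23) and Bcl2l10, Bcl2a1a, Bcl2a1b and Bcl2a1d had none. The Bcl2a1 genes are near-identical copies, among which reads can be lost or misplaced, so their 0 peaks are uncertain. Of the pro-death ones, Bad had a weak peak (2.66) and Bok, Bik and Hrk had none. Absence from the list means that no peak was called at the unknown depth of these libraries, not that the mark was absent.

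Downstream of the mitochondria, 9 of 12 apoptosome and caspase genes had an end peak (36.2% of all protein-coding genes had one), the strongest being Cycs (8.26), which encodes cytochrome c, Casp2 (5.88) and Htra2 (5.63). Of the inhibitor of apoptosis genes 4 of 5 had one, with Birc2 at 10.8, Birc6 at 6.18 and Birc3 at 5.57. Of the death receptor pathway 6 of 7 had one, led by Cflar, the gene of the caspase-8 inhibitor c-FLIP, at 10.0, then Tnfrsf1a at 5.94 and Ripk1 at 4.86. In the list drawn up for Mcl1 turnover (ubiquitin ligases, a deubiquitinase and a related pseudokinase) 4 of 5 had one, with Trib1 at 16.1, Fbxw7 at 7.96 and Usp9x at 5.42. Of these 38 genes, Trib1, Birc2 and Cflar had an end peak with a signal above that of Mcl1.

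The labelled cell type was checked against its markers. Among stem cell and sort markers Ptprc (10.8), Flt3 (6.58), Kit (5.66) and Slamf1 (3.21) had a peak at an end, while Ly6a, which encodes Sca1, and Cd34 had none. All 5 early B-lineage genes had one, from 4.40 at Cd79a to 13.6 at Blnk, beside 36.2% of all protein-coding genes. The part of cells with early B-lineage acetylation in the values of the Bcl2 family was not tested.

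The stricter lists separated the members further. When −log10 q had to reach 5, 7 of the 10 genes kept a peak at an end, against 24.0% of all genes, and those lost were Bcl2 and Bid. Bcl2 then had only its peaks inside and outside, and Mcl1 was the only pro-survival gene with an end peak. Of the 16 peaks at Bcl2l1, 4 were left, of the 12 at Bmf 9, and of the 4 at Pmaip1 the end peak alone. Among peaks with a signal of 4 or more, the same 7 genes kept an end peak, against 23.2% of all genes. The peak kept for Bax in both lists was the one nearer to Ftl1, and that at its own start was lost.

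**Figure D5:**
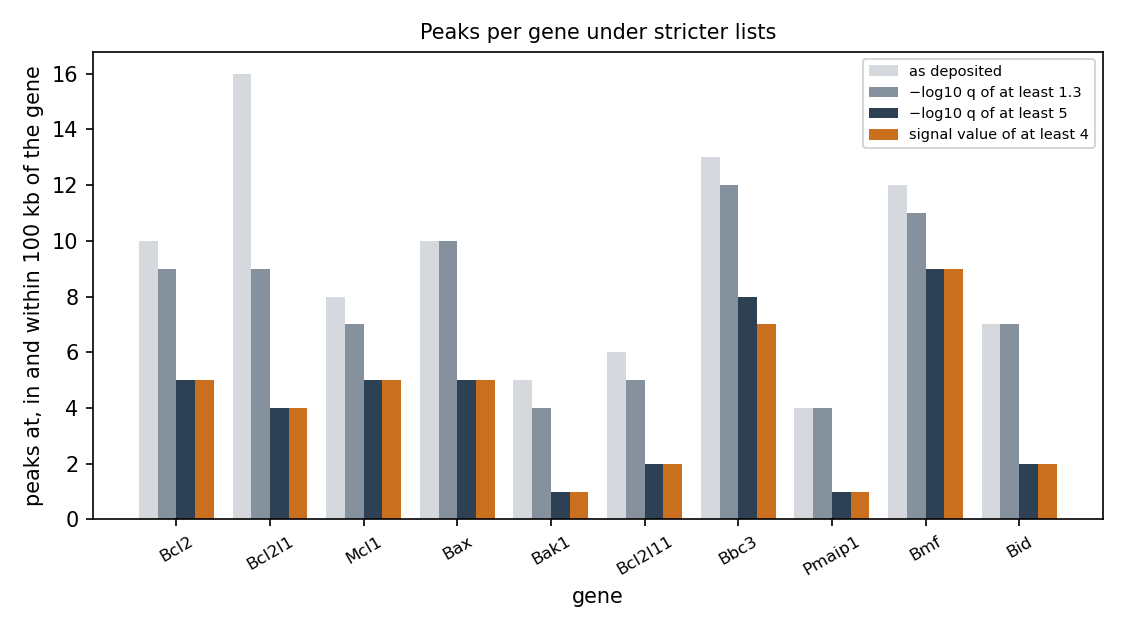
Peaks at, in and within 100 kb of each gene (y axis) in the list as deposited and in 3 stricter lists. Bcl2l1 falls from 16 peaks to 9 with −log10 q of at least 1.3 and to 4 with at least 5, whereas Bmf keeps 9 of 12 there.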

How the data were processed

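Reads of the 4 H3K27ac libraries were aligned with BWA to mm10 and peaks called over input with MACS2, per the submitters' processing notes, which give no versions or settings. The deposited list has no header. Its columns were read as a score per peak by the authors, the authors' signal value (a fold or ratio over background), and the authors' −log10 p-value and −log10 q-value. The lowest −log10 p was 2.01, and 4859 peaks had a q-value above 0.05. Total reads were not given, so depth is unknown. Scores were not used. Genes and transcript starts came from RefSeq tables of GRCm38.p6, the assembly behind mm10. All 10 members were in the gene table and 9 in the promoter table, which covered 17492 protein-coding genes. Coordinates are 1-based. A peak was assigned to an end (any overlap with 1 kb on either side), else to the inside, else to the 100 kb outside. Counting was tested on simulated data. All members were named, with up to 3 genes of each other list by strongest end peak (all of a short list where the count needed it) and genes nearest to a member's peak. Members and lists were chosen with earlier results of these data known. Some cell type markers are not reported here. Python 3.11.15 and pandas 2.3.3 were used. Alternatives were stricter lists, wider or narrower windows, summits, nearest genes, merged peaks and, added after the data were seen, listed starts.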

Additional observations from a re-analysis of the deposited data

How the results depend on the processing

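With −log10 q of at least 5, 3 members had a peak inside (7.34% of all genes did), 42 peaks were counted and 1 pro-survival gene had an end peak. When only signals of 4 or more were kept, these were 3 (6.85% of all genes), 41 and 1. Requiring the summit in the window left 1 pro-survival and 6 pro-death genes, since the Mcl1 summit lay 2233 bp and that of the Bbc3 end peak 1443 bp from the nearest end of the gene record. Counting only peaks whose nearest gene end was the member's left 5 members with an outside peak (11.0% of all genes) and 37 peaks. The share of all genes with an end peak was 34.4% at −log10 q of 1.3 or more, 24.0% at 5 or more, 23.2% for signals of 4 or more, 39.3% with 2.5 kb, 33.3% by summit and 38.0% by listed starts. By listed starts, 3 pro-survival and 6 pro-death genes had a peak, Pmaip1 having no listed start. The number of members with an end peak stayed between 7 and 9. No paired analysis was possible because replicates have no columns of their own in the list, and single libraries could not be left out for the same reason.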
